A study of Mus musculus with 8 samples.

Results

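Collagens are triple-helical proteins of the extracellular matrix, built from a short repeat that always holds glycine and often proline. Fibrillar collagens form the fibres of connective tissue, network-forming collagens such as type IV make the scaffold of basement membranes, and other members link fibrils, anchor epithelia or span the cell membrane. In the liver, stellate cells are the main collagen producers in fibrosis, while hepatocytes are the parenchymal cells that lie next to this matrix. Methylation of cytosine in CpG dinucleotides is usually low at the CpG-rich starts of genes and high along gene bodies.

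The 42 collagen genes described here were taken by name, and their members were the CpGs in the mm10 gene body or the 1500 bases before the gene start that had at least 5 reads in every mouse after both strands were summed. This gave 2671 CpGs of 897285 tested in the whole data set, between 2 per gene in Col3a1 and 193 in Col13a1. The study examined the hepatocyte epigenome, and these libraries addressed age: hepatocytes were obtained by liver perfusion from female C57Bl6/J mice, 4 mid-aged (40 weeks) and 4 young (10 weeks), all on the control diet, with 1 library per mouse. DNA was cut with MspI, which recognises CCGG, and sequenced after bisulfite conversion (reduced representation bisulfite sequencing, RRBS), so that a value is the percentage of reads in which a CpG was methylated. Reads over CpGs numbered 84639955 to 118395064 in mid-aged and 46321447 to 72710972 in young libraries, so that depth and age cannot be told apart from the group totals, and young mouse 1 stood apart with the fewest reads and 56.1% methylated reads against 24.9% to 47.9% in the other mice. At collagen CpGs the median depth was 31 to 61 reads per mouse.

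The identity of the cells could be checked at few sites. Of 12 hepatocyte marker genes, 2 had a promoter value, Apob with 22.6% in mid-aged and 14.98% in young mice and Fgb with 18.9% and 14.7%. Promoters of 7 stellate cell markers had medians of 6.94% and 5.60%. Hepatocyte marker bodies lay in both directions (4 higher and 2 lower of 6). Of 33 bodies of stellate, endothelial, Kupffer cell and leukocyte, and cholangiocyte markers, 28 means were higher and 5 lower in mid-aged mice. Their median difference was 1.27 percentage points, against 0.224 over all gene bodies, and 0 were called (limma). When reads were pooled over a body, the median over all gene bodies was -0.943 percentage points. The largest of the marker body differences, chosen after its value was seen, was in Csf1r, the receptor of a macrophage growth factor. Its body mean was 39.4% against 51.2% in the young group (limma, adjusted p = 0.0690). The part of this difference in the results below was not tested. A methylation level is a mean over all cells of a sample, so a change within hepatocytes and a different share of another cell type cannot be told apart.

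The sequences that carried a difference between the ages are shown first, as the forward strand of chromosomes 4 and 11 in the RefSeq copy of the mouse genome (GRCm38, the build of mm10), with the tested CpGs in capitals. They are the 6 places that held the 9 CpGs called different. Each of the 4 genes lies on this strand. None of these bases was marked as a repeat in the reference.
Col27a1 intron 2, first called CpG, chr4:63221606-63221666: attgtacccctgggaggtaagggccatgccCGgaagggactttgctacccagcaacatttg
Col27a1 intron 2, run of 3 called CpGs, chr4:63221985-63222113: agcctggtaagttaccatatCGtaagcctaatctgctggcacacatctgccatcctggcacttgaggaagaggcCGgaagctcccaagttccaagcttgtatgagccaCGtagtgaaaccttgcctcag
Col27a1 intron 11, chr4:63257232-63257292: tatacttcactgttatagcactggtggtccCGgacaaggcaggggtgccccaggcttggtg
Col16a1 intron 48, chr4:130081793-130081853: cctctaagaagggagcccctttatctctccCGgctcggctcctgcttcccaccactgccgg
Col15a1 coding exon 3, chr4:47245397-47245457: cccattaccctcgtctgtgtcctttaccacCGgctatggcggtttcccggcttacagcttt
Col23a1 intron 2, 4 tested CpGs of which the first and last were called, chr11:51493832-51493965: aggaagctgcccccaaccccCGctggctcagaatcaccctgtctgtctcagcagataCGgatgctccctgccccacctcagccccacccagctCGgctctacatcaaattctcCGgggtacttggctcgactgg

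Of the 2671 collagen CpGs, 9 were lower in mid-aged mice and 0 were higher (quasi-binomial test; a call required an adjusted p under 0.05 over all CpGs, means 5 or more percentage points apart, and in each group a variance under 0.05 on the fraction scale). Among all tested CpGs, 0.102% were called lower and 0.0615% higher. The share of collagen CpGs called lower was 0.337%, which comes from 9 CpGs in 4 genes and 6 places, 5 of them in Col27a1. The 4 genes were Col27a1, Col23a1, Col16a1 and Col15a1, and the other 38 collagen genes had no called CpG. At an unadjusted p under 0.05, 118 collagen CpGs were lower and 140 higher, and these made up 9.66% of collagen CpGs against 9.09% of all tested CpGs. With limma on M values, after the test named in the methods of the study, 0 collagen CpGs were called in either direction. Of all 897285 tested CpGs, that fit called 0 lower and 3 higher. At an unadjusted p under 0.05 it had 109 collagen CpGs lower, 79 higher and 10 with equal group means. These made up 7.41% of collagen CpGs against 9.78% of all tested CpGs. Without any 1 of the mid-aged mice 4 CpGs were called lower, and without 1 of the young mice 7 to 11.

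**Figure D1:**
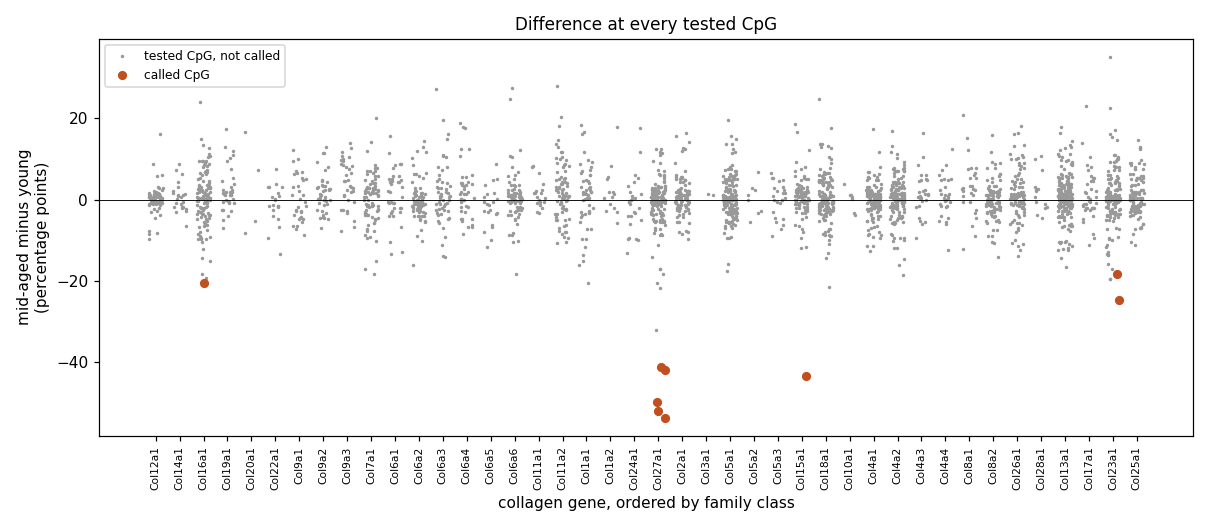
Difference between the mid-aged and the young mean (percentage points, vertical axis) at every tested CpG of the 42 collagen genes, which are ordered by family class along the horizontal axis; grey points were not called and the 9 orange points were called. All called CpGs lie below 0, from -18.2 to -53.6 percentage points, and 5 of them are in Col27a1.

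Col27a1 encodes the chain of collagen XXVII, a fibrillar collagen of cartilage. Its gene body spans chr4:63214004-63334991, and 5 of its 146 tested CpGs were called lower. The CpG at position 63222005 had 26.5%, 25.5%, 28.9% and 24.7% in the mid-aged mice and 61.1%, 85.1%, 87.7% and 70.9% in the young mice. The mid-aged mice thus lay within a few percentage points of each other, and the groups did not overlap. The means were 26.4% ± 1.86 and 76.2% ± 12.5 (SD, n = 4 each; adjusted p = 0.000243, quasi-binomial test). This CpG opens the run of 3 called CpGs printed above, which ends at position 63222093. The called CpGs were picked by a test on these same values, so a lack of overlap at them is no separate support. Among the 146 tested Col27a1 CpGs, the groups did not overlap at 10 that were lower and 3 that were higher in mid-aged mice. The 10 include the 5 called CpGs. The share of such CpGs over the whole data set is not given here, so these counts cannot be read as a trait of Col27a1.

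At the next CpG, at position 63222059, the Col27a1 values were 44.4%, 36.4%, 33.9% and 34.9% in mid-aged and 100%, 100%, 83.0% and 81.2% in young mice, so all young mice were above all mid-aged ones. This was the largest of the Col27a1 differences, at -53.6 percentage points (quasi-binomial test, adjusted p = 0.000319). The last CpG of the run had 66.7%, 36.1%, 61.5% and 42.9% in mid-aged and 100%, 100%, 84.1% and 90.9% in young mice. It was also the least covered, with 4 of 6 reads methylated in mid-aged mouse 1 (95% Wilson interval 30.0% to 90.3%, counting error only), and its adjusted p was 0.0297 (quasi-binomial test). Averaged over the run, mid-aged mice were at 38.5% ± 6.22 and young mice at 87.0% ± 5.92.

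The fourth called CpG of Col27a1 intron 2, at position 63221636, stood alone upstream of the run. It had 16.2%, 24.4%, 31.8% and 32.3% in mid-aged and 66.7%, 100%, 81.8% and 64.3% in young mice, again without overlap (adjusted p = 0.0305, quasi-binomial test). Between this CpG and the run lay a pair of CpGs that were not called. At position 63221856 the means were 28.2% ± 6.60 and 46.5% ± 22.0, and the groups overlapped through young mouse 1 alone, at 18.8% of 16 reads. Without that mouse this Col27a1 CpG was called lower (28.2% against 55.8%, adjusted p = 0.0483, quasi-binomial test). At position 63221916 both groups were almost fully methylated, at 95.5% ± 5.08 and 89.8% ± 8.77. At that CpG of the intron, then, mid-aged mice did not have the lower mean.

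The fifth called CpG of Col27a1, in intron 11 at position 63257262, lies 330 bases beyond the end of the hairpin of the microRNA gene Mir455 (chr4:63256851-63256932), which is encoded within Col27a1 on the same strand. Its values were 23.5%, 33.3%, 30.6% and 34.5% in mid-aged and 77.5%, 68.4%, 67.6% and 73.4% in young mice, and the groups were far apart relative to their spread (30.5% ± 4.92 and 71.7% ± 4.62, adjusted p = 0.00162, quasi-binomial test). The hairpin and the bases after it are printed here because methylation changed sharply along them, with the tested CpGs in capitals:
Mir455 hairpin and flank, chr4:63256851-63256990: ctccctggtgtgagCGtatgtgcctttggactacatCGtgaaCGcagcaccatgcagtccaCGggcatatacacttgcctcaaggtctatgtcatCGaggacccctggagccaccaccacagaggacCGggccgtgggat
The 4 tested CpGs inside the hairpin averaged 15.7% ± 5.46 in the mid-aged group and 18.3% ± 7.23 in the young one. The next tested Col27a1 CpG, 14 bases past the hairpin at position 63256946, was at 77.2% ± 5.63 and 97.7% ± 3.82, and missed the threshold (adjusted p = 0.0611, quasi-binomial test). It was called without young mouse 1 (adjusted p = 0.0444) and without young mouse 3 (adjusted p = 0.0302). The CpG after it, at position 63256978, was at 65.9% ± 9.36 and 87.6% ± 3.55 (adjusted p = 0.166, quasi-binomial test). Farther on in Col27a1, the means of the 5 CpGs before the called one lay between 9.81% and 23.7% in mid-aged and between 11.3% and 40.8% in young mice. The first of these Col27a1 CpGs, at position 63257076, had groups that did not overlap (23.7% ± 4.12 and 40.8% ± 4.57, adjusted p = 0.173, quasi-binomial test). Within 500 bases on either side of the called CpG, 15 more were tested, of which 10 had lower and 5 higher means in mid-aged mice and 3 had an unadjusted p under 0.05.

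**Figure D2:**
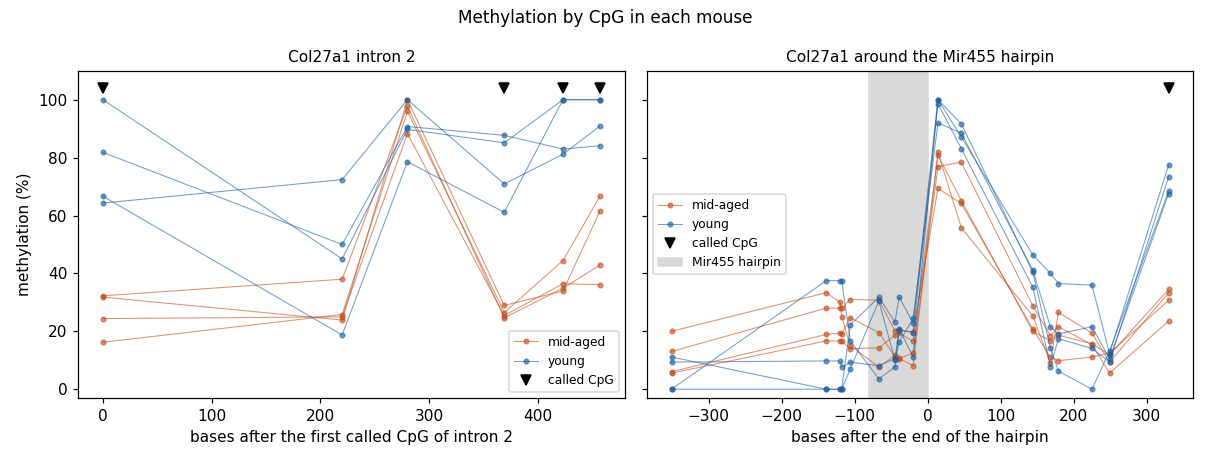
Methylation (percent, vertical axis) of each tested CpG in each of the 8 mice along Col27a1 intron 2 (left, in bases from the first called CpG) and around the Mir455 hairpin (right, in bases from its end, hairpin in grey); orange lines are mid-aged and blue lines young mice, and triangles mark called CpGs. On the left the lines separate at the 4 called CpGs and meet at the CpG near 95.5% and 89.8%, and on the right all mice are low in the hairpin.

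Col23a1 encodes a transmembrane collagen and spans chr11:51289920-51583918. Of its 162 tested CpGs, 2 were called lower, both in intron 2 more than 200 kb from the gene start. At position 51493852 the mid-aged mice had 7.94%, 11.4%, 6.58% and 4.50% and the young mice 34.7%, 22.0%, 21.2% and 25.2% (adjusted p = 0.0221, quasi-binomial test). At position 51493945 the values were 25.0%, 37.9%, 33.8% and 33.0% against 56.0%, 48.4%, 67.6% and 56.7% (adjusted p = 0.0366, quasi-binomial test). Neither CpG overlapped between the ages. In all of Col23a1 the groups did not overlap at 6 CpGs lower and 6 higher in mid-aged mice, and the lower ones include both called CpGs. Without the share of such CpGs over the whole data set, which is not given here, these counts say nothing particular about Col23a1. The CpGs between them were not called, but their means lay in the same direction, with 10.5% against 24.0% at position 51493889 and 34.7% against 54.2% at position 51493925 in Col23a1. Over all 4, the mid-aged mean was 21.3% ± 1.23 and the young mean 40.3% ± 3.11.

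Col16a1, a fibril-associated collagen on chr4:130047840-130099283, had 1 called CpG of 123 tested. At position 130081823, in intron 48, the mid-aged mice were at 50%, 44.2%, 43.6% and 46.8% and the young mice at 68.1%, 61.2%, 69.4% and 68.4%. This was the deepest of the called sites, with 60 reads in the shallowest mouse, and the difference was -20.6 percentage points (adjusted p = 0.00173, quasi-binomial test). No other tested CpG lay within 500 bases.

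Col15a1, a multiplexin of basement membrane zones on chr4:47208161-47313167, had 1 called CpG of 90 tested, the only one of the 9 in a coding exon. At position 47245427 in exon 3 the values were 55.6%, 50%, 25.0% and 66.7% in mid-aged and 94.7%, 100%, 87.5% and 88.5% in young mice. Mid-aged mice spread widely here (49.3% ± 17.6 against 92.7% ± 5.84, adjusted p = 0.0461, quasi-binomial test). The shallowest library had 5 of 9 reads methylated (95% Wilson interval 26.7% to 81.1%).

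**Figure D3:**
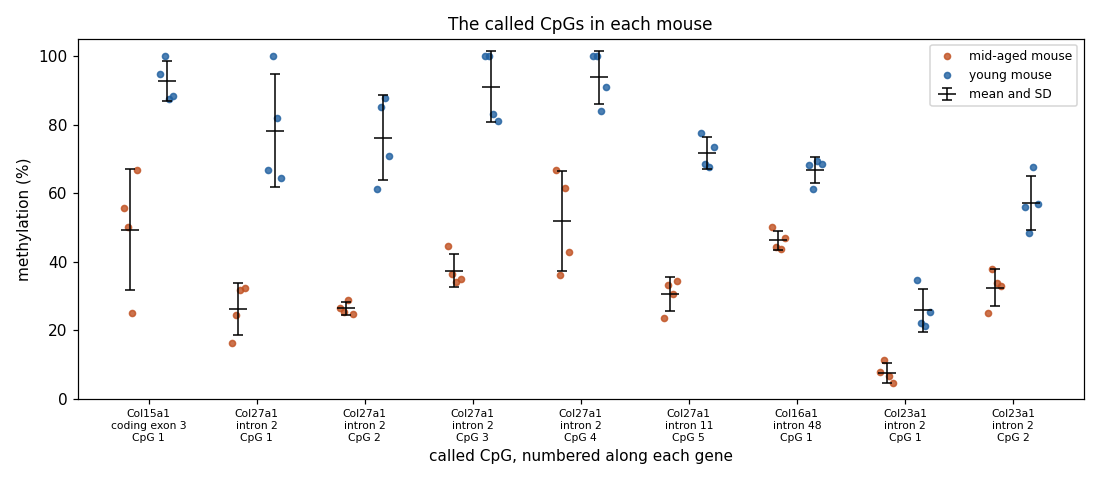
Methylation (percent, vertical axis) at the 9 called CpGs, which are numbered along each gene on the horizontal axis, in 4 mid-aged (orange) and 4 young (blue) mice; black marks give the mean and SD of each group. At each CpG, picked by a test on these same values, the highest mid-aged mouse is below the lowest young mouse. Col15a1 has the widest mid-aged spread (25.0% to 66.7%).

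The 9 CpGs differed in how often they were still called when 1 mouse was left out. Such fits changed the calls of the whole data set too. Without 1 mid-aged mouse 335 to 543 of all CpGs were called lower, and without 1 young mouse 746 to 1369, against 914 with all mice. A lost call thus need not come from a particular mouse. Both of the first CpGs of the Col27a1 run, the Col27a1 CpG in intron 11 and the Col16a1 CpG were called in 8 of 8 fits that left out 1 mouse. The other 5 were called in 1 to 4 of these 8 fits, fewest in Col15a1. With reads thinned to the shallowest library, 5 CpGs were called. Of the 9, 6 lie in a CCGG site, against 33.6% of all tested collagen CpGs, and whether the position in the cutting site has a part in the calls was not tested. Chromosome 4 carried 7 of the 9 called CpGs, with 5 of these in Col27a1 alone, and 5 of the 42 genes lie there. Of the 2671 tested CpGs these genes held 146 (Col27a1), 123 (Col16a1), 95 (Col8a2), 90 (Col15a1) and 42 (Col9a2). Whether the chromosome has a part in the calls was not tested.

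Over whole genes, no collagen differed with age by the test used. None of 41 gene bodies was called (limma, adjusted p under 0.05), against 0.477% of all gene bodies, and 1 was lower and 4 higher at an unadjusted p under 0.05, where 3.78% of all bodies were lower and 7.59% higher. Body means ran from 16.8% in Col12a1 to 97.2% in Col10a1, a network-forming collagen of hypertrophic cartilage. Of the 41 bodies, 15 were above 80% and 4 below 30%. The microfibril-forming collagen VI genes were the class with the largest share of CpGs above 80%, at 84.3%. Its member Col6a5 had 50% of 22 tested CpGs above 80%. Of the CpGs of the multiplexins Col15a1 and Col18a1, 40.9% were below 10%.

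The Col27a1 body came nearest to the threshold, with 51.0%, 51.1%, 51.5% and 50.8% in mid-aged and 53.6%, 54.1%, 53.3% and 53.4% in young mice. The groups did not overlap, and the difference of -2.52 percentage points (95% interval -3.59 to -1.45) had an adjusted p of 0.0706 (limma). The 5 called CpGs of Col27a1 made up 67.1% of the summed difference over the 141 CpGs of this body, so most of it restates those calls. Without them the means were 51.7% ± 0.278 and 52.6% ± 0.179, a difference of -0.86 percentage points, with the groups still apart. The CpGs left in still included the uncalled neighbours of the called ones described above, so this remainder is not separate from those places. When only bodies with at least 10 tested CpGs were fitted, Col27a1 was called (adjusted p = 0.0372, limma). Col9a3, a chain of the fibril-associated collagen IX of cartilage, came next and in the other direction, with 22.3%, 20.5%, 20.7% and 20.2% in mid-aged and 15.2%, 16.6%, 16.4% and 19.0% in young mice (adjusted p = 0.102, limma). Across the 41 bodies, 31 means were higher in mid-aged mice and 10 lower, with a median difference of 0.612 percentage points against 0.224 over all gene bodies. When reads were pooled over a body instead, 12 were higher and 29 lower, so this direction changed with how reads were weighted. Young mice varied more, with the larger SD in 33 of the 41 bodies (median SD 1.56 against 0.963 percentage points); their libraries also held fewer reads, whose part in this was not tested.

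**Figure D4:**
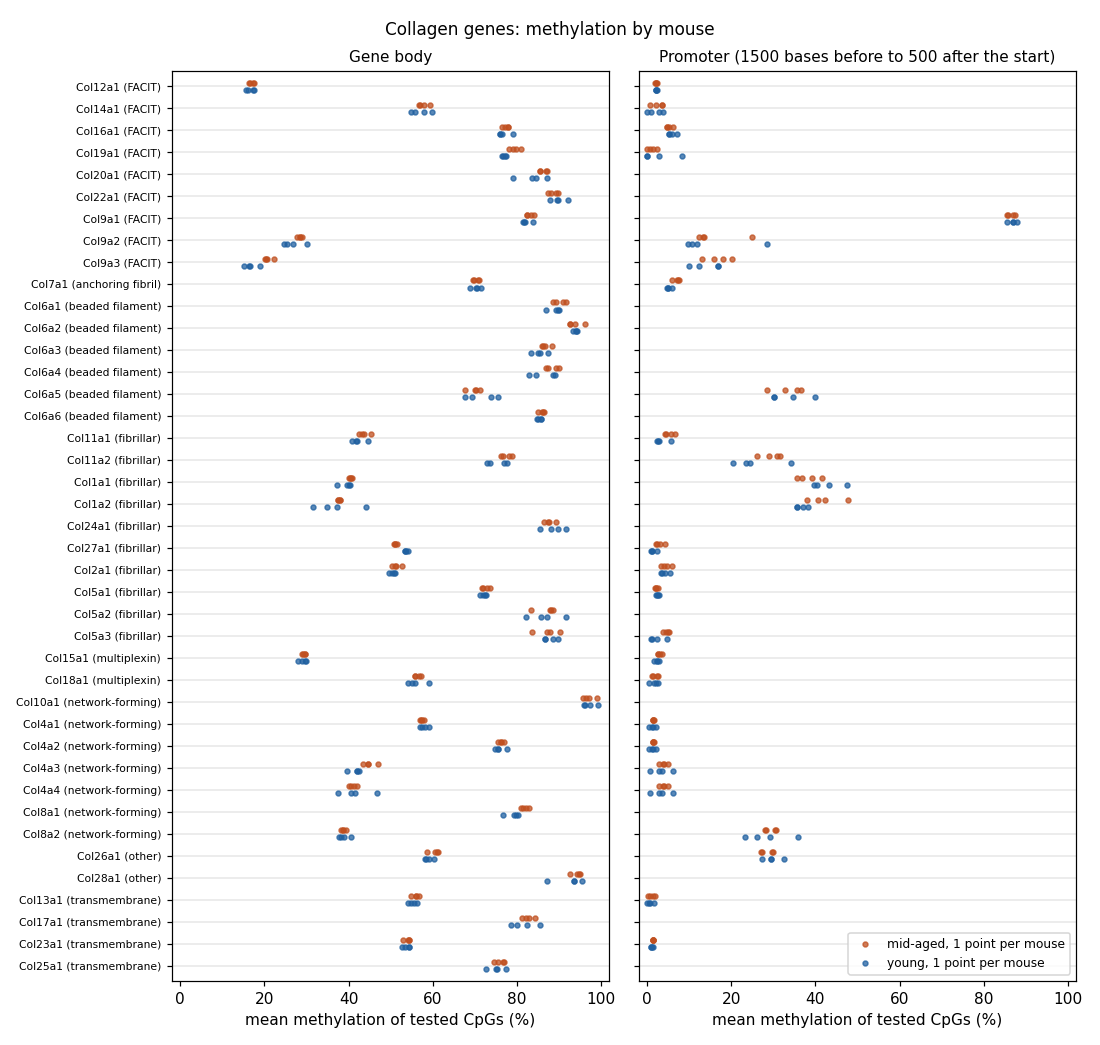
Mean methylation (percent, horizontal axis) of the tested CpGs in the gene body (left) and promoter (right) of each collagen gene with at least 3 tested CpGs, with 1 point for each mid-aged (orange) or young (blue) mouse. Most promoters are under 10%, Col9a1 is the one above 80%, and the Col27a1 body shows separate groups near 51% and 54%.

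Promoters were taken from 1500 bases before to 500 after the gene start. There were 25 distinct collagen promoters, since Col4a1 and Col4a2 share one, as do Col4a3 and Col4a4, which are transcribed head to head. None was called in either direction (limma), against 0.0565% of all promoters. At an unadjusted p under 0.05, 0 were lower and 4 higher, where 2.17% of all promoters were lower and 6.79% higher. Among the 4 was Col7a1, the anchoring fibril collagen, with 7.04% ± 0.686 and 5.18% ± 0.605. Methylation was below 10% in 16 promoters, between 10% and 50% in 8, and above 80% in Col9a1 alone (86.5% ± 0.864 and 86.9% ± 1.01). All 12 tested CpGs of the Col9a1 window lay more than 500 bases before the gene start. The Col9a1 value thus does not describe the bases next to the start, where no CpG was tested.

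The shared promoter of Col4a1 and Col4a2, which encode the main chains of basement membranes, was almost unmethylated, with 1.71%, 1.42%, 1.54% and 1.46% in mid-aged and 2.16%, 1.13%, 0.533% and 1.35% in young mice over 44 CpGs. Col18a1, whose product is cleaved to endostatin, was likewise low, with 1.91% ± 0.698 and 1.67% ± 0.958. The genes of type I collagen, the chief fibrillar collagen of scar tissue, differed from these in this window. The Col1a1 promoter had 39.3%, 35.7%, 36.8% and 41.7% in mid-aged and 39.7%, 47.5%, 43.2% and 40.5% in young mice (difference -4.34 percentage points, 95% interval -9.62 to 0.937, adjusted p = 0.629, limma). The Col1a2 promoter, with 4 tested CpGs, had 42.2%, 38.0%, 40.6% and 47.8% against 35.7%, 37.2%, 35.6% and 38.3%. Its difference was 5.47 percentage points (95% interval 0.283 to 10.7, adjusted p = 0.533, limma). It was among the 4 promoters that were higher at an unadjusted p under 0.05. The groups overlapped in both, in Col1a2 only through 38.0% and 38.3%. Past the window, both type I genes held a run of CpGs under 10%. In Col1a2 it had 6 CpGs at 4.82% (mid-aged) and 3.97% (young), 534 to 780 bases after the gene start. In Col1a1 it had 5 CpGs at 2.92% and 1.96%, 1652 to 1841 bases after it. Another annotated transcript start lay within the Col1a2 run and 190 bases from the Col1a1 run. Col3a1, the partner of type I collagen in fibrils, had no tested promoter CpG, and its 2 tested CpGs lay in intron 18 and exon 19.

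Immediately before the Col1a1 start the methylation of neighbouring CpGs was unequal. The last 80 bases are shown because both of their CpGs were tested, with these in capitals:
Col1a1, chr11:94936144-94936223: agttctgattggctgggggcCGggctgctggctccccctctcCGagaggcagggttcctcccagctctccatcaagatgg
The first, 60 bases before the start, was at 17.6% ± 7.78 and 32.6% ± 8.14, and the second, 38 bases before it, at 59.3% ± 6.63 and 79.8% ± 16.05 in Col1a1 (adjusted p = 0.523 and 0.507, quasi-binomial test). Neighbours this close thus differed from each other by more than the ages did.

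Along the genes, levels varied more with distance from the start than with age. Between 500 bases before and 499 after the start, means were between 4.48% and 5.13% in both groups. They were 61.1% and 60.2% at 2000 to 4999 bases, and 82.2% and 81.8% from 50000 bases on. Runs of at least 5 neighbouring tested CpGs under 10% in both groups numbered 38, in 22 genes when those at shared promoters were counted once, and 33 of them lay within 1000 bases of an annotated transcript start. One exception was in Col13a1, a transmembrane collagen, with 8 CpGs at 4.58% and 4.13% about 41 kb from the nearest start.

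**Figure D5:**
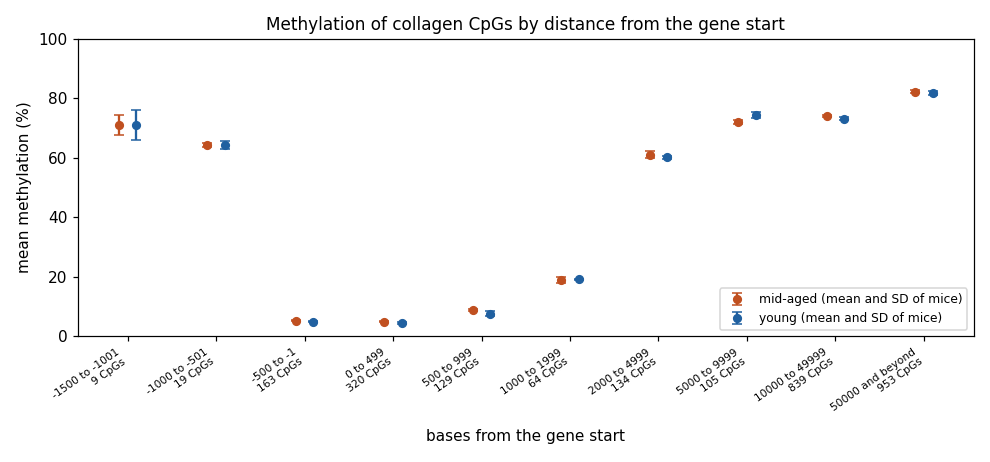
Mean methylation (percent, vertical axis) of collagen CpGs by distance from the gene start in bases (horizontal axis, with the number of CpGs in each bin); points are the mean of 4 mid-aged (orange) or 4 young (blue) mice and bars the SD over mice. Means are near 5% around the start and reach 82.2% and 81.8% in the farthest bin.

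By annotation, the 1474 intronic collagen CpGs averaged 67.0% in mid-aged and 66.6% in young mice and held 8 of the 9 calls. The 698 coding CpGs averaged 74.8% and 74.2%, the 173 CpGs of 5′ untranslated regions 5.37% and 5.04%, and the 29 of 3′ untranslated regions 87.4% and 87.7%. Compared with CpGs of other genes, collagen CpGs were more often above 80% (52.6% against 31.6%) and less often in dense stretches with at least 10 CpGs within 100 bases on either side (28.5% against 56.2%). Among CpGs of like density the first gap was smaller, with 62.4% against 57.1% above 80% at 5 to 9 CpGs and 70.6% against 69.0% at 4 or fewer, and it was 19.2% against 8.23% in dense stretches. Within the 10% to 80% range, where all 9 calls lay, 1.45% of collagen CpGs were called lower against 0.575% of those of other genes, and 0 were called higher against 0.433%. Over both directions the shares were 1.45% and 1.01%. This range was set on the mean of both ages, so a large difference can itself move a CpG into it.

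The glycine repeat of the proteins was looked for in the measured coding CpGs. In 19.7% of 697 coding CpGs of 36 collagens the cytosine closed a codon that was followed by glycine, against 11.6% of 154712 coding CpGs in other genes. A proline codon CCC before a glycine codon holds the CCGG site, and 8.32% of collagen coding CpGs lay at such a junction against 1.43% elsewhere. Of the coding CpGs in a CCGG site, the shares were 23.5% and 7.91%. An example is exon 22 of Col4a2, with the 3 CpGs before glycine codons in capitals:
Col4a2 exon 22, chr8:11421168-11421322: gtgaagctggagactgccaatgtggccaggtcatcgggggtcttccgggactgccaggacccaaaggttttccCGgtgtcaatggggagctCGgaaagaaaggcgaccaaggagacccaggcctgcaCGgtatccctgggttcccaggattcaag
The first of these, at position 11421241 of Col4a2, was at 64.7% ± 15.4 and 65.5% ± 11.4, the second at 68.0% ± 5.35 and 69.4% ± 15.1. The third, at position 11421295, was at 12.5% ± 1.59 and 24.3% ± 5.98, and none of them was called (quasi-binomial test, adjusted p = 0.345 for the third Col4a2 CpG).

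The 6 genes with most tested CpGs and no call were Col13a1 (193 CpGs), Col5a1 (155), Col18a1 (152), Col4a2 (151), Col4a1 (132) and Col25a1 (112). Col5a1 encodes a chain of the collagen V that regulates fibril assembly, with a body mean of 72.5% ± 0.827 (mid-aged) and 72.1% ± 0.566 (young). The Col25a1 body, of a transmembrane collagen, was at 75.9% ± 1.01 and 75.1% ± 1.88. The Col13a1 body was at 55.9% ± 0.762 and 55.2% ± 0.870, and Col18a1 at 56.4% ± 0.697 and 56.0% ± 2.18. The bodies of Col4a1 (57.5% ± 0.401 and 57.9% ± 0.914) and Col4a2 (76.2% ± 0.660 and 75.8% ± 1.28) differed by less than the SD of the young mice.

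Genes that modify, process, cross-link or bind collagens were read as a list of 51, of which 47 had a tested CpG. Of their 2117 CpGs, 5 were lower in mid-aged mice and 0 higher (quasi-binomial test), with 90 lower and 86 higher at an unadjusted p under 0.05. The share called lower was 0.236% against 0.102% of all tested CpGs, with 0.0615% of these called higher, and the share at an unadjusted p under 0.05 was 8.31% against 9.09%. Tll2, a tolloid-like metalloproteinase of the family that trims procollagens, held 4 of the 5, the largest at chromosome 19, position 41083735, with -36.0 percentage points. Loxl4, a lysyl oxidase-like enzyme of the family that cross-links collagen, held the other (chromosome 19, position 42598114, -28.0 percentage points). The 14 prolyl and lysyl hydroxylases and glycosyltransferases, the 8 chaperones and export factors, the 10 receptors and the 6 fibril-associated proteoglycans had 0 called CpGs. None of 33 promoters and none of 46 bodies on the list was called (limma); at an unadjusted p under 0.05, 1 promoter was higher, 1 body lower and 2 bodies higher.

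Averaged over all 2671 CpGs, collagen methylation was 61.2%, 60.7%, 61.1% and 60.6% in the mid-aged and 60.2%, 60.9%, 60.5% and 60.1% in the young mice. The groups overlapped, and the mean difference of 0.476 percentage points turned to -8.71 when reads rather than CpGs were weighted equally.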

How the data were processed

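Hepatocyte DNA of 8 mice was profiled by RRBS. Per the labels and the study's methods, the authors trimmed reads with Trim Galore 0.4.2, aligned them with BWA 0.6.2 to mm10 and handled alignments with SAMtools 1.3 and Picard 1.115, while no source used here names the methylation caller. The deposited files list each CpG per strand with a methylation percent and its coverage, a read count. Columns 10 and 11 carry no label and were not used.

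Methylated read numbers were restored from percent and coverage, strands were summed, and CpGs with at least 5 reads in every mouse were kept, of which 99.998% were CG in the reference. Each CpG was fitted with a quasi-binomial logistic model in R 4.3.3, its dispersion moderated by limma 3.58.1 and held at 1 or above, with Benjamini-Hochberg adjustment over all 897285 CpGs. Means per gene body and promoter (at least 3 CpGs) were fitted with limma over all genes. Genes came from GENCODE release M21, with positions counted from 1, and the code was tested on simulated data. The members and gene lists were chosen with earlier results of these data known. Every collagen gene with a called CpG, each run of 3 or more called CpGs with at most 200 bases between neighbours, the 6 genes with most CpGs and no call, 6 fixed promoters (Col1a1, Col1a2, Col3a1, Col4a1, Col4a2, Col18a1) and pathway genes with a called CpG were named by rule; Col9a3, Col10a1, Col12a1, Col9a1, Col7a1, Csf1r, single uncalled CpGs, the Mir455 hairpin and exon 22 of Col4a2 were chosen after their values were seen. Each library comes from its own mouse, and no 2 libraries held more than 0.646% of CpGs with the same read numbers. Wilson intervals cover counting error only, since RRBS reads are not separate molecules. Alternatives were at least 10 reads, limma on M values, thinned reads, pooled reads, a replicate block, other gene windows and leaving out each mouse.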

Additional observations from a re-analysis of the deposited data

Results flagged for a closer look

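In 60 groups of 4 values tested for a mouse far from the other 3, 3 were flagged, and chance flags about 1 in 20 such groups. Young mouse 2 stood below the others at the called Col16a1 CpG (61.2% against 68.1% to 69.4%), but above every mid-aged mouse. Mid-aged mouse 4 was low in the Col23a1 body (52.9% against 54.2% to 54.4%). Young mouse 4 was high in the Col27a1 promoter (2.45% against 1.06% to 1.28%).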

How the results depend on the processing

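The number of collagen CpGs called lower, 9 with the settings used, was 0 with limma on M values, as it was over all tested CpGs. It was 5 with a replicate block, 5 with thinned reads and 4 to 11 when 1 mouse was left out. With at least 10 reads it was 6, and restricting the windows kept it within 1.5 times. The number called higher was 0 in every setting but leaving out 1 mouse, where it was 0 to 1, the 1 being a Col13a1 CpG at position 61890513 without young mouse 2 (95.5% against 82.0%). Mice with the same number did not deviate together over 93089 CpGs (correlations -0.00352 to 0.00935). This check cannot tell whether such mice were handled together, since a shared effect on few CpGs would not show in it. With the block, 0 gene bodies and 0 promoters were called, as in every other setting tried for promoters; 1 body, Col27a1, was called among bodies with at least 10 CpGs. The Col27a1 body difference of -2.52 percentage points was -0.86 without its called CpGs, an alternative chosen after seeing the data. The mean difference over all collagen CpGs, 0.476 percentage points, was -8.71 with pooled reads and 0.352 to 0.669 without 1 mouse; the cause of its turn was not tested, and pooling gives deep CpGs more weight. For the 9 called CpGs, 61 of the values from other settings kept the call and 43 lost it. Every difference stayed negative, but leaving out 1 mouse could not change this, since the groups did not overlap at these CpGs. The fits with limma, with the block and with at least 10 reads took the same difference of means. With limma on M values their adjusted p ranged from 0.367 to 0.492. A pair of Col27a1 CpGs and the one of Col15a1 were covered too thinly for all settings. A median 95% interval of 2.21 percentage points on either side of a body difference, and 2.01 for a promoter, limits what could be seen.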
